A study of Mus musculus with 5 samples.

Results

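Memory Th1 cells were set against naive CD4 T cells, the resting populations of a series in which spleen CD4 T cells of BALB/c mice were profiled on Affymetrix mouse expression arrays. The comparison used 2 of the 5 arrays, 1 per population, and every gene whose probe sets carried a single gene symbol: 18193 genes, of which 13082 gave a signal above background on at least 1 of those 2 arrays. The other 3 arrays held effector Th1 cells that had been kept 5 days in culture with IL-2 (15 ng/ml) and IL-12 (10 ng/ml), as a control culture, a culture labelled Rap and a culture labelled TOFA, and served only to sort the genes into classes. TOFA blocks acetyl-CoA carboxylase, an enzyme of fatty acid synthesis, and the labels do not expand Rap. The source names call the memory and naive cells primary and only the effector cells cultured, although the same culture text is attached to all 5 samples. How the memory cells were raised and sorted, and the age and number of mice, are not given in the labels.

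Naive CD4 T cells are helper T cells that have not yet met their antigen and circulate through lymphoid organs in a quiescent state kept by transcription factors such as FOXO1, LEF1 and KLF2. After activation in the presence of IL-12 some become Th1 cells, which use the transcription factor T-bet, carry the chemokine receptor CXCR3 and make interferon gamma. Memory Th1 cells are the long-lived descendants that remain afterwards: they return to rest but keep surface CD44, receptors for inflamed tissue and the ability to make cytokine again quickly.

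With 1 array per population there was no replicate check, so no test, SD or p-value was possible, and precision is limited by the number of arrays. Genes were counted once they differed by at least 2-fold in quantile normalized signal, a linear brightness in arbitrary units. Signals under the floor of 43.4, the 40th percentile, were raised to it, and a fold against an array at the floor is written as at least that fold. The only error that could be measured was the scatter among a gene's own probe sets, with an SD of 0.54 on the log2 scale over 6253 genes. For the 1014 genes past 2-fold that had other probe sets above the floor, the median of those other probe sets was taken. This median went the same way in 91.7% of the genes and was past 2-fold as well in 50.8%. Signal depends on the probe, so levels are compared between arrays and never between genes.

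The array labelled memory Th1 stood apart from the other 4 in its signal from macrophage and monocyte genes. The 26 macrophage and monocyte genes summed to 272950 on the memory array, against 4540 on the naive array, and to between 1166 and 1792 on the 3 effector arrays. The memory array had 25 of the 26 above the floor and the naive array 14, and the defining genes C1qa, C1qb, C1qc, Spic and Vcam1 were under the floor on the naive array and on all 3 effector arrays. T cell genes were present on both arrays: the 36 genes of the TCR complex and proximal signalling list were all above the floor, summing to 189484 on the memory array and 251563 on the naive array. Cd3d, a chain of the T cell receptor complex, gave 17052 on the memory array and 21591 on the naive array, and Cd4 gave 483 and 897 on the same arrays. The Cd4 difference was -0.89 on the log2 scale, -2.13 at its other probe set and -1.51 as the mean of both. Fewer cells of a type and less RNA per cell cannot be told apart in such bulk samples.

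**Figure D1:**
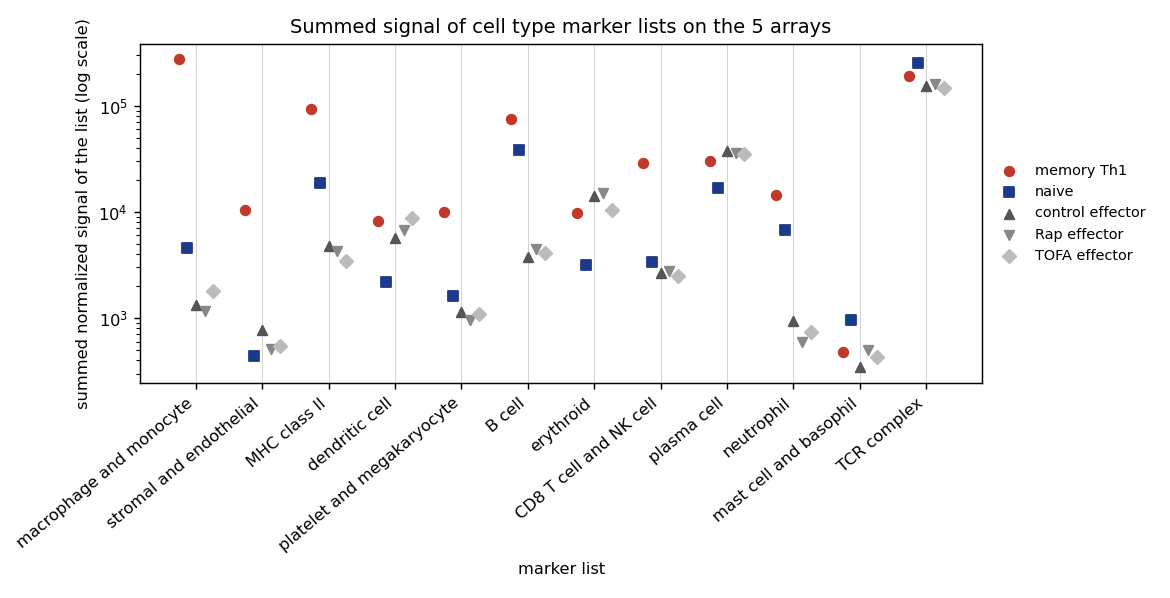
Summed normalized signal (log scale) of each list of other spleen cell genes and of the TCR complex list, on the memory Th1, naive, control effector, Rap effector and TOFA effector arrays, 1 point per array. The macrophage and monocyte list stands at 272950 on the memory array and 4540 on the naive array, while the TCR complex list lies between 147314 and 251563 on all 5.

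Over all 13082 genes compared, 1645 (12.6%) were at least 2-fold higher in memory Th1 cells and 542 (4.14%) at least 2-fold lower, 16.7% in all, with a median difference of -0.05 on the log2 scale. Higher genes made up 75.2% of those past 2-fold, and 85.8% with the signals as deposited. Large differences lay on the higher side: 397 genes were at least 8-fold higher and 11 at least 8-fold lower, and 119 were at least 32-fold higher against 0 lower. Of the 1645 higher genes 591 were at the floor on the naive array, and of the 542 lower genes 91 were at the floor on the memory array. Such genes were compared only through the array where they are bright, so their direction was fixed by that filter. The genes were then divided by the effector arrays. Of 1137 genes at the floor on all 3 effector arrays, 358 (31.5%) were higher in memory cells and 32 (2.81%) lower, 34.3% in all, and 270 of the 358 were at the floor on the naive array. Of 11945 genes above the floor on at least 1 effector array, called T cell expressed, 1287 (10.8%) were higher and 510 (4.27%) lower, 15.0% in all.

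The effector arrays did not divide the cell types cleanly. The macrophage gene Cd5l, which encodes a secreted lipid-binding protein, reached 43.9 on 1 effector array, just above the floor, and so fell among the T cell expressed genes with 10348 on the memory array against 27.3 on the naive array, while Cd79a, a chain of the B cell receptor, reached 43.3 and fell just outside. The same class held 11 of the 26 macrophage and monocyte genes, 18 of the 20 B cell genes and all 10 MHC class II genes. Of these, 11, 17 and 9 were at least 2-fold higher in memory cells, beside 10.8% of the class. Cd68 and Adgre1, the gene of the macrophage protein F4/80, were in this class. Among its genes furthest higher were also Igfbp7, Il18, Axl, Aif1, Hebp1, Abcc3 and Marcks, each at least 110-fold higher. Aif1 gave 6226 and Axl 7966 on the memory array, and both were under the floor on the naive array. Of the 1287 higher genes of the class, 143 had less than 1/10 of their memory signal on every effector array. A stricter class, added after seeing the data, kept only the 4992 genes at or above the 80th percentile, a signal of 690, on all 3 effector arrays. In it 263 genes (5.27%) were higher in memory cells and 113 (2.26%) lower, 7.53% in all, and 131 of the 263 were as bright or brighter on an effector array than on the memory array. These genes are called strongly T cell expressed, and macrophages can express them too.

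**Figure D2:**
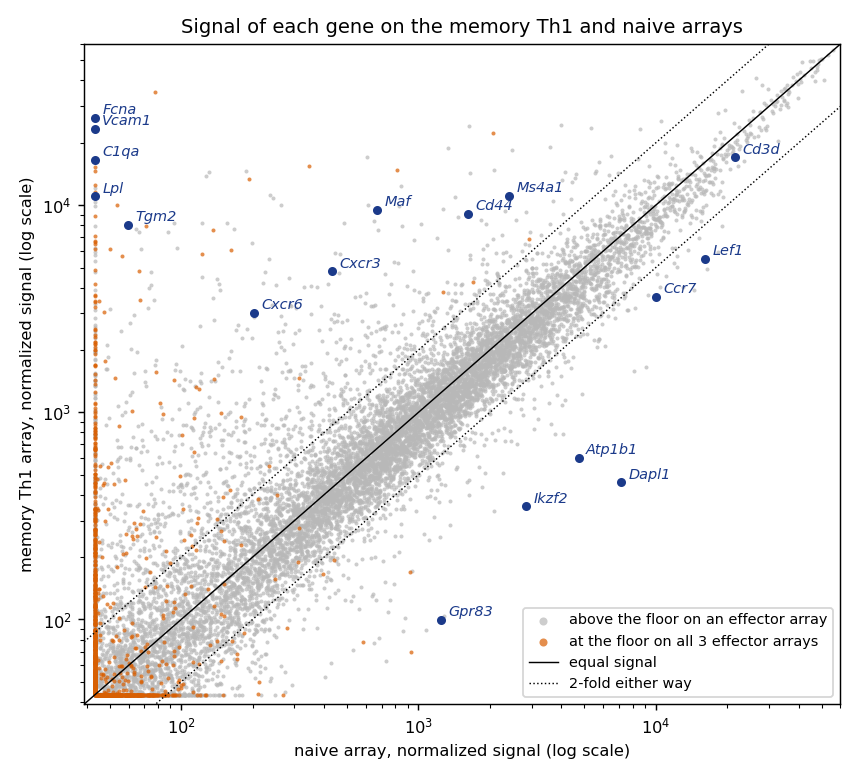
Normalized signal of each of the 13082 genes on the memory Th1 array (vertical, log scale) against the naive array (horizontal, log scale), with values under the floor drawn at it and genes at the floor on all 3 effector arrays in orange. A column of orange points, Fcna and C1qa among the labelled ones, rises at the naive floor, while Dapl1, Gpr83, Ikzf2 and Atp1b1 lie far below the line of equal signal.

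Of the marker genes of the populations, Cxcr3, Cd44 and Maf were higher in memory cells and Dapl1 was lower. They were chosen with earlier results of these data known, so their directions are no check of the labels. Cxcr3, which guides Th1 cells to inflamed tissue, gave 4799 on the memory array against 432 on the naive array, 11.1-fold higher, with 1679 to 4019 on the effector arrays. Cd44, the hyaluronan receptor used to tell memory from naive T cells, gave 9058 against 1624, 5.58-fold higher, and its other probe sets above the floor had a median difference of 2.60 on the log2 scale. Maf, a transcription factor of cytokine-producing helper cells that macrophages express too, gave 9476 on the memory array and 670 on the naive array, and 969 to 1602 on the effector arrays. Dapl1, a gene of naive T cells, gave 460 on the memory array against 7154 on the naive array, 15.6-fold lower, near its 360 to 712 on the effector arrays. Cd44 and Maf are known macrophage genes too, and the part of macrophage RNA in their higher values was not tested.

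The 250 bases upstream of the annotated start are shown for Cxcr3 and Dapl1, which mark the memory and the naive state, and for C1qc, a macrophage gene at 11581 on the memory array and under the floor on the naive array. They were taken from RefSeq on the mouse build GRCm38.p6. The capitals mark the motif GAGGAAGT or its reverse complement ACTTCCTC, an ETS site of the kind bound by the macrophage factors PU.1 and SPIC, searched on both strands. The C1qc promoter lies on the minus strand at chr4:136892915-136893164 and holds the motif starting 195 bases before the start site. The Cxcr3 promoter lies on the minus strand at chrX:101734148-101734397 and holds the motif starting 16 bases before the start site. The Dapl1 promoter lies on the plus strand at chr2:59484403-59484652 and these letters are not in it.
C1qc: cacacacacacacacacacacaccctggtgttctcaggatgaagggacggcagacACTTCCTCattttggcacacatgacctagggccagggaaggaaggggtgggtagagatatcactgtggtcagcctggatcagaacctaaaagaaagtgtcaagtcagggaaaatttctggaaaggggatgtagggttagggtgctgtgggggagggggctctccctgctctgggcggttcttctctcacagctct
Cxcr3: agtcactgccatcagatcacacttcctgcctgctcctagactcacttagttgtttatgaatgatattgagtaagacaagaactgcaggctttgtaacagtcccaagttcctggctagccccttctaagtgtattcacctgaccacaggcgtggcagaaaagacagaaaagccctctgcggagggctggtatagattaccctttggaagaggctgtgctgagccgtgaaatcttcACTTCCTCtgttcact
Dapl1: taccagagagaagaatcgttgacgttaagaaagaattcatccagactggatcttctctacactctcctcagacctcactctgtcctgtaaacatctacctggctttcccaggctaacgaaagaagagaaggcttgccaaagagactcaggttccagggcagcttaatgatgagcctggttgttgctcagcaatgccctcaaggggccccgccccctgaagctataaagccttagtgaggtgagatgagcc
Counted by gene, the motif was in a promoter of 2.79% of all 27025 genes of the promoter table. It was in 3.06% of the 10568 genes compared here that had a promoter there. Of 130 genes at the floor on the effector arrays and at least 8-fold higher in memory cells, 105 had a promoter and 2 of these (1.9%) the motif. Of 263 strongly T cell expressed genes that were higher, 212 had a promoter and 6 of these (2.83%) the motif. Of 510 T cell expressed genes that were lower, 408 had a promoter and 14 of these (3.43%) the motif. The motif AGGTGTGA, a T-box half-site of the kind T-bet binds, was in 1.3% of all genes of the promoter table. It was in 1.01% of those compared here, and in 0.952%, 0.943% and 0.735% of the same 3 groups. A match describes the letters of a promoter and not a bound site.

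Many genes of the Th1 program were higher in memory cells, while the interferon gamma message stayed far under the effector cultures. Of 26 Th1 effector genes compared, 12 were at least 2-fold higher and 0 lower, beside 12.6% and 4.14% of all genes. Ifng, Hlx and Havcr2, among the 12, were under the floor on the naive array, so the filter fixed their direction. Hlx was at the floor on all 3 effector arrays as well. The part of other spleen cells in the values of this list was not tested. The list median was 0.83 against -0.05 over all genes. Among the 12 members that were strongly T cell expressed 6 were higher and 0 lower, beside 5.27% and 2.26% of that class. Tbx21, which encodes T-bet, gave 710 on the memory array and 121 on the naive array, 5.85-fold higher, and 2036 to 2967 on the effector arrays. Bhlhe40, a transcription factor needed for cytokine production by Th1 cells, gave 1253 on the memory array against 61.8 on the naive array and 2533 to 5248 on the effector arrays. Both genes stood between the naive and the effector arrays.

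The receptor for IL-18, a cytokine that recalls interferon gamma from Th1 cells, was higher in both its chains. Il18r1 gave 14479 on the memory array against 4142 on the naive array, a difference of 1.81 on the log2 scale, and Il18rap gave 934 against 186. On the effector arrays Il18r1 lay between 5458 and 6180, all under the memory array. Ifng itself gave 116 on the memory array and was under the floor on the naive array, at least 2.67-fold higher, whereas the effector arrays read 980 to 4108. Ccl5, a chemokine that memory T cells store as message, gave 3708 on the memory array and 1079 on the naive array, 3.44-fold higher, and Fasl and Nkg7, genes of cell killing, gave 614 against 276 and 643 against 289. Stat4 and Runx3, transcription factors of the same list, differed by -0.26 and 0.04 on the log2 scale. Granzyme B, the protease gene Gzmb, was at 223 on the memory array and 266 on the naive array, far under the 13979 to 28440 of the effector arrays.

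**Figure D3:**
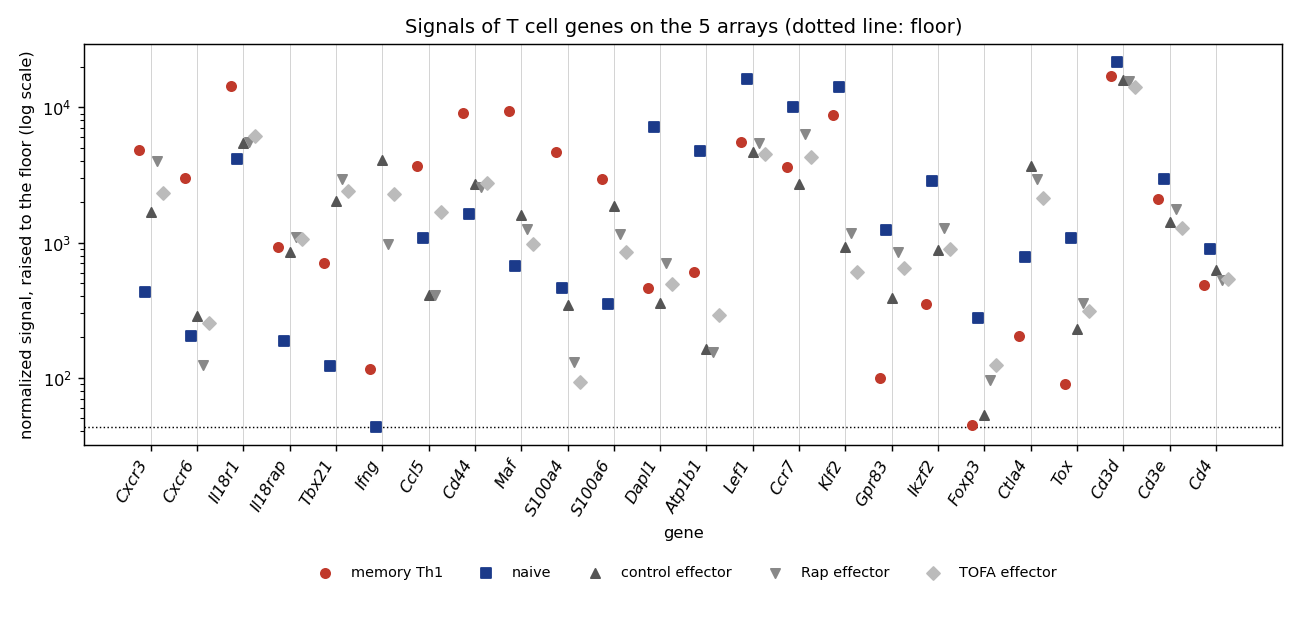
Normalized signal (log scale, values under the floor drawn at it) of 24 T cell genes on the memory Th1, naive, control effector, Rap effector and TOFA effector arrays, 1 point per array, with a dotted line at the floor of 43.4. Cxcr3, Cxcr6 and S100a4 are higher on the memory array than on the naive array, and Dapl1, Gpr83, Ikzf2 and Tox are lower.

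Among homing receptors, Cxcr6 and Ccr2 were higher beside Cxcr3, and Ccr7 was lower. Cxcr6, which holds memory T cells in liver and lung, gave 3015 on the memory array against 202 on the naive array, and 125 to 284 on the effector arrays. Ccr2, a receptor of monocytes and memory T cells, gave 4165 against 144, a difference of 4.85 on the log2 scale. Ccr7, which takes naive cells into lymph nodes, gave 3604 against 10056, 2.79-fold lower, and S1pr1, which lets T cells leave them, gave 3286 against 6218, under 2-fold. Of 22 chemokine and sphingosine phosphate receptors, 9 were higher and 3 lower, beside 12.6% and 4.14% of all genes, with a list median of 0.19. Of the 17 that were T cell expressed 7 were higher and 2 lower (median 0.04), beside 10.8% and 4.27% of that class. Of the 8 strongly T cell expressed 1 was higher and 1 lower (median -0.75), beside 5.27% and 2.26% of that class. The 9 included Ccr3, at 3399 on the memory array and under the floor on the other 4, and Cxcr5 and Ccr6, which B cells express as well. The part of other spleen cells in these values was not tested.

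Among all genes past 2-fold 75.2% were higher, and surface genes are set beside that share. Of 20 memory and activation surface genes, 9 were higher and 2 lower, with a median of 0.32. Of the 14 strongly T cell expressed 7 were higher and 1 lower, beside 5.27% and 2.26% of that class. Itgb1, the integrin beta 1 chain, gave 3723 on the memory array and 751 on the naive array, and Icos, a costimulatory receptor, gave 1799 against 794 and 10314 to 10975 on the effector arrays. Cd27, a receptor lost by effector memory cells, gave 2062 against 5661. Il7r, the IL-7 receptor that keeps both naive and memory cells alive, gave 22487 and 18722, and Il2rb, a chain of the IL-15 receptor, gave 320 and 385, both under 2-fold. Of 29 integrins and adhesion genes, 11 were higher and 1 lower, and 6 and 1 of the 16 strongly T cell expressed, with Cd81 at 8780 against 1465 and Icam1 at 2581 against 613. Itgax, a dendritic cell and macrophage integrin, was among the 11.

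The S100, annexin and galectin genes bind calcium, membranes or sugars, and several of them mark memory T cells. Of 22 members, 14 were higher and 1 lower, beside 12.6% and 4.14% of all genes, with a list median of 1.31. Of the 16 strongly T cell expressed members 8 were higher and 1 lower, beside 5.27% and 2.26% of that class. S100a4 gave 4714 on the memory array against 463 on the naive array, 10.2-fold higher, and 93.6 to 348 on the effector arrays. These effector values were each under 1/10 of its memory signal. S100a6 gave 2974 against 353, 8.42-fold higher, and Anxa1, an annexin also made by myeloid cells, gave 4012 against 329. Lgals3, the galectin-3 gene and a known macrophage product, was 33.2-fold higher at 6586 against 198. Tagln2, an actin-binding protein, was the exception at 1228 against 4890, while the effector arrays read 7065 to 10417. Its difference of -1.99 on the log2 scale was -0.63 as the mean of its probe sets and 0.21 without _x_at and _s_at probe sets, so its direction is uncertain. The part of macrophages and other spleen cells in the values of this list, S100a4 and S100a6 included, was not tested.

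Many genes of the naive state were lower. Of 27 naive and central memory T cell genes, 0 were higher and 13 at least 2-fold lower, beside 12.6% and 4.14% of all genes. The list median was -0.99, and 5 of the 15 strongly T cell expressed members were among the lower, beside 2.26% of that class. Atp1b1, a subunit of the sodium pump, gave 602 on the memory array against 4724 on the naive array, 7.85-fold lower. Lef1, a Wnt pathway transcription factor of naive T cells, gave 5507 against 16176, 2.94-fold lower, close to its 4515 to 5460 on the effector arrays. Igfbp4, a binding protein for insulin-like growth factors, gave 4895 against 16373, and Il6st and Il6ra, the chains of the IL-6 receptor, gave 931 against 3199 and 2262 against 5751. Of 21 quiescence transcription factors, 6 were lower and 1 higher, with a median of -0.69. Foxo1 gave 2241 against 5496, Bach2 gave 2913 against 6316 and Tsc22d3, a glucocorticoid-induced gene, gave 4032 against 13029. Only 1 of the 3 other Tsc22d3 probe sets above the floor was lower too, and their median was 0.24 on the log2 scale, so its direction is uncertain. Klf2 gave 8746 against 14239, under 2-fold, and 600 to 1175 on the effector arrays. The single higher member was Klf4, which myeloid cells express, at 449 against 92.4. With each difference centred on the median of the T cell receptor genes, a scaling added after seeing the data, 2 of the 6 remained lower, the list median was -0.15, and Foxo1 and Bach2 were under 2-fold.

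Genes of T cell receptor signalling, which both populations share by lineage, had a median of -0.53 over 36 genes. Of these 6 were lower and 1 higher, beside 4.14% and 12.6% of all genes. Cd6, a receptor that tunes T cell activation, gave 1143 on the memory array against 4125 on the naive array, and Cd5, of the same family, gave 4016 against 10405. Cd3e gave 2087 and 2932, and Thy1 gave 12435 and 8161, both under 2-fold. After the same centring on these 36 genes, 7 of the 13 lower naive genes remained at least 2-fold lower, the list median was -0.46, and Ccr7 moved to -0.95 on the log2 scale. Dapl1 and Atp1b1 were then at -3.43 and -2.44.

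Regulatory T cell genes divided. Of 21 compared, 6 were lower and 5 higher, beside 4.14% and 12.6% of all genes. The list median of -0.25 turned to 0.28 when centred on the T cell receptor list. The 6 lower were Foxp3, Ikzf2, Ikzf4, Gpr83, Ctla4 and Izumo1r, and all 6 remained lower after that centring. Foxp3, the lineage factor of regulatory T cells, gave 275 on the naive array and was close to the floor on the memory array, a difference of -2.62 on the log2 scale. Ikzf2, which encodes Helios, gave 352 against 2844, 8.08-fold lower, and Ikzf4, which encodes Eos, gave 122 against 518. Gpr83, a receptor marking these cells, was 12.4-fold lower at 99.8 against 1240. Ctla4, the inhibitory receptor, gave 203 against 788, and Izumo1r, the folate receptor 4 gene, gave 384 against 1177. The 5 higher were Entpd1, Ebi3, Nrp1, Swap70 and Socs2, genes that myeloid cells, B cells or activated T cells also express, with Ebi3 at 608 against 80.8.

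Tox, a transcription factor of developing and exhausted T cells, gave 89.4 on the memory array against 1072 on the naive array, a difference of -3.58 on the log2 scale. Crtam, an adhesion receptor of cytotoxic cells, gave 63.2 against 727, and Pde5a, a phosphodiesterase, gave 104 against 1281. The remaining T cell expressed genes furthest lower were Sfmbt2, Amigo2, Rasl11b, Airn and Ephb6, each between 7.69-fold and 9.83-fold lower. Of the 510 lower genes, 168 were as bright or brighter on an effector array than on the naive array, so for these the memory array was lower than both the naive array and at least 1 effector array. Itm2a, a membrane protein of activated T cells, belonged to them, with 1659 on the memory array, 9068 on the naive array and 9348 on the control effector array. Itih5 gave 132 on the memory array against 645 on the naive array, and 3778 to 9311 on the effector arrays.

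Tgm2 was among the strongly T cell expressed genes that were higher. It encodes transglutaminase 2, an enzyme that crosslinks proteins, and gave 8035 on the memory array against 59.8 on the naive array, 134-fold higher, and 8650 to 14083 on the effector arrays. Its difference of 7.07 on the log2 scale was 4.89 without _x_at and _s_at probe sets and 4.71 as the mean of its probe sets. Ctla2a, a cysteine protease inhibitor gene first found in activated T cells, gave 8234 against 156, 52.8-fold higher, and 6794 to 11314 on the effector arrays, and its relative Ctla2b gave 1603 against 94.5. For these 3 genes the memory array lay within or just under the range of the effector arrays. Dst, a cytoskeletal linker, gave 970 against 56.6 and 825 to 990 on the effector arrays, a difference of 4.10 on the log2 scale that was 1.5 as the mean of its probe sets. The interferon-induced membrane protein genes Ifitm2 and Ifitm3 gave 1688 against 77.4 and 10028 against 264. Grn, the progranulin gene, and Lst1, a myeloid gene, gave 17117 against 608 and 11188 against 236, each brighter on the memory array than on any effector array. Tgm2, Ifitm3, Grn and Lst1 are expressed by macrophages too, and that part was not tested. Strongly T cell expressed genes furthest lower, beside Ikzf2, included Ift80, Rgcc, Klhdc2 and Ldhb, the last a lactate dehydrogenase subunit at 258 against 1057.

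Of all genes compared 16.7% passed 2-fold, and cell division genes are set beside that share. Of 26 mitosis genes 0 were at least 2-fold higher and 1, Kif23, was at least 2-fold lower (list median -0.09). Among 34 DNA replication genes only Tk1, thymidine kinase, passed 2-fold, at 235 against 51.1. Mki67, the gene of the proliferation antigen Ki-67, gave 1088 on the memory array and 560 on the naive array, under 2-fold, while the effector arrays read 13230 to 15835. Both arrays were far under the effector arrays for these lists, whose mitosis genes summed to 9465 on the memory array, 8067 on the naive array and at least 142790 on the effector arrays. The mitosis median turned to 0.19 with the signals as deposited.

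Glycolysis, with 3 of 18 past 2-fold, and fatty acid synthesis, with 4 of 24, were near the 16.7% of all genes. Acaca, which encodes the acetyl-CoA carboxylase that TOFA inhibits, gave 397 on the memory array and 327 on the naive array, and Fasn, fatty acid synthase, gave 857 and 1147, both under 2-fold. Of 24 fatty acid synthesis genes 3 were higher, Scd1, Hsd17b12 and Me1, and 1 lower, Elovl7. Cholesterol synthesis (20 genes) and oxidative phosphorylation (29 genes) had 0 past 2-fold, with medians of 0.05 each. Of 23 fatty acid oxidation genes, 2 were higher: Etfb, an electron transfer subunit, at 3914 against 956, and Lipa, the lysosomal acid lipase. Cpt1a, which brings fatty acids into mitochondria, gave 1880 and 1812, a difference of 0.05 on the log2 scale that was -1.03 at the median of its other 2 probe sets and -0.67 as the mean of all. Of 18 glycolysis genes, Hk2, a difference of 2.07 on the log2 scale, and Tpi1 were higher and Ldhb lower. Of 10 lipid uptake and binding genes 7 were higher, with a median of 2.26, and of the 6 that were T cell expressed 3 were higher (median 1.29). The furthest were Lpl, lipoprotein lipase, at 11039, Lrp1 at 2633 and Cd36 at 2186 on the memory array, all under the floor on the naive array and at least 254-fold, 60.7-fold and 50.4-fold higher, and 4 of the 7 were at the floor on all 3 effector arrays. Fabp5 and Scarb1 were higher too, at 5751 against 1649 and 1415 against 216, and were strongly T cell expressed. The part of macrophages and other spleen cells in these lipid gene values was not tested.

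Immediate early genes, which follow recent T cell receptor contact, had 7 of 31 lower and 4 higher, beside 4.14% and 12.6% of all genes. The list median of -0.51 turned to 0.02 when centred on the T cell receptor list. Cd69, an early activation receptor, gave 1218 on the memory array against 3837 on the naive array, and Egr2 gave 194 against 507. Ier3 gave 311 on the memory array and was under the floor on the naive array, at least 7.17-fold higher. Of 27 type I interferon stimulated genes, 4 were higher, near the 12.6% of all genes, and 0 lower, with a median of 0.19, and of the 10 strongly T cell expressed 0 passed 2-fold (median -0.05). Rsad2 gave 2641 against 173, Oas1a 478 against 44.2, Mx1 410 against 113 and Ifih1 2083 against 958. Cytotoxic granule genes had 5 of 15 higher and 1 lower (median 0.23), and CD28 and TNF family genes 6 of 22 higher and 2 lower (median -0.28). T cell chemokine and cytokine genes had 6 of 18 higher and 0 lower (median 0.75), and STAT5, SOCS and PIM feedback genes 1 of 18 each way (median -0.16). Follicular helper genes had 6 of 17 higher and 2 lower, Th17 genes 3 of 9 and 1, and Th2 genes 3 of 9 and 2. Of 10 guanylate binding protein and immunity-related GTPase genes 0 passed 2-fold (median -0.12). Inhibitory receptors had 7 of 15 higher and 5 lower. Of the 4 strongly T cell expressed 0 were higher and 2 lower (median -0.70), beside 5.27% and 2.26% of that class. After centring on the T cell receptor list 1 of the 15 was lower. The higher ones included Pilra (3042 against 47.1) and Cd244a (1708 against 94.7), which are known from myeloid and natural killer cells. The lower ones included Pdcd1 (80.3 against 195) and Cd160, which were under 2-fold in 4 of 9 and 4 of 8 alternatives.

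**Figure D4:**
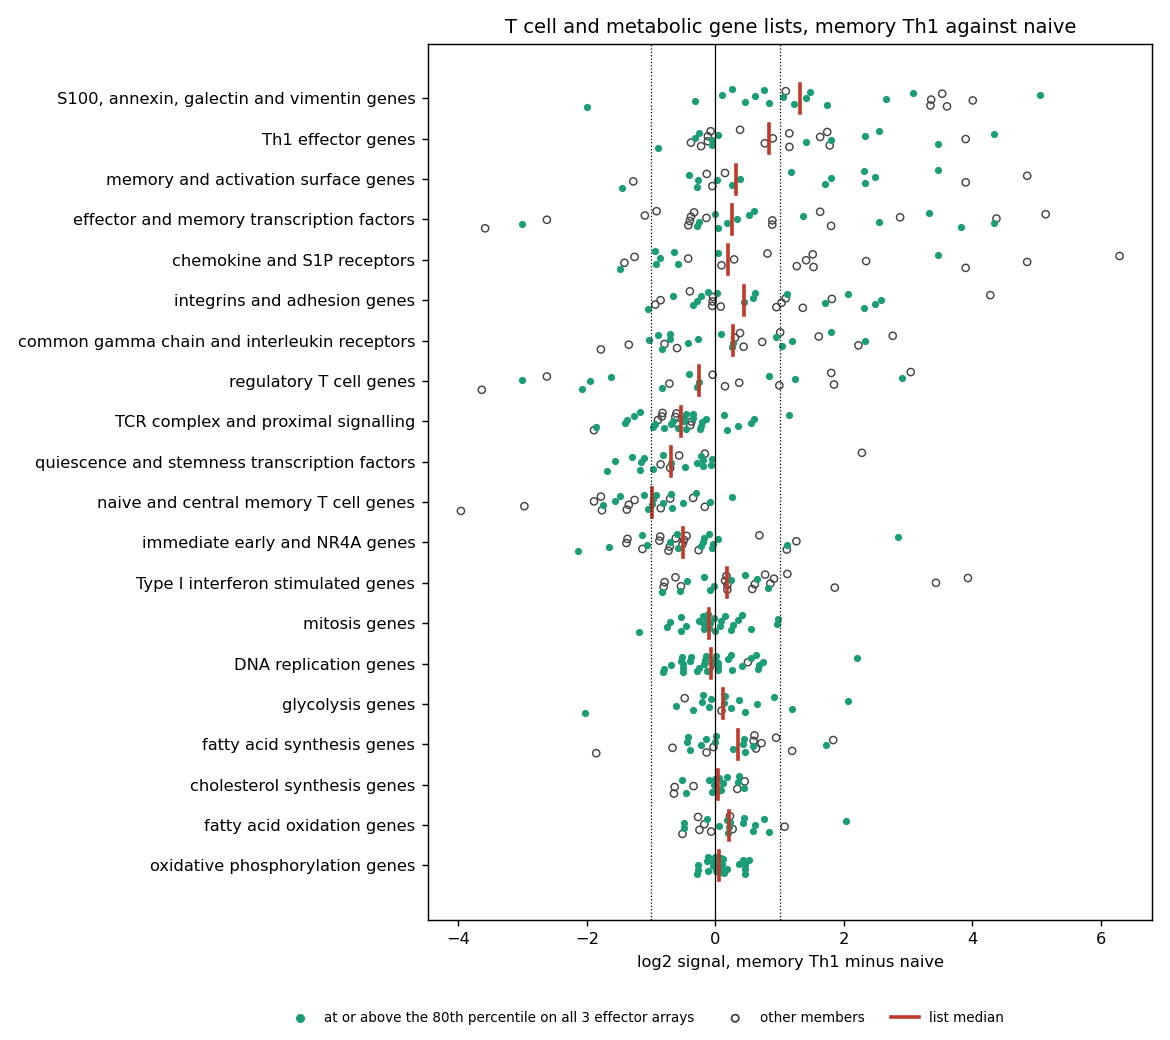
Difference in log2 signal, memory Th1 minus naive, of each member of 20 T cell and metabolic gene lists, with list medians as red bars and dotted lines at 2-fold. Filled green points are at or above the 80th percentile on all 3 effector arrays. The S100 and Th1 lists have medians of 1.31 and 0.83, the naive list has -0.99, and the oxidative phosphorylation list lies at 0.05 with no member past 2-fold.

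Genes of other spleen cells are given apart. The counts of all these lists stand beside 12.6% higher and 4.14% lower over all genes. Of 26 macrophage and monocyte genes, 25 were higher and 0 lower, with a median of 6.39 on the log2 scale. Fcna, which encodes ficolin A, gave 26391 on the memory array and was under the floor on the naive array, at least 608-fold higher. Vcam1, an adhesion molecule of red pulp macrophages, gave 23380 and was at least 539-fold higher. Slc40a1, the iron exporter ferroportin, gave 35277 against 77.3, 456-fold higher. Spic, the transcription factor of red pulp macrophages, gave 15329 and was at least 353-fold higher, and C1qa and C1qb, subunits of complement C1q, were at least 382-fold and 290-fold higher. The only member not past 2-fold was Clec4f, a gene of liver macrophages, under the floor on the memory array and at 57.4 on the naive array.

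Lymphoid and stromal markers were higher as well, by less. Of 20 B cell genes 19 were higher, with a median of 1.57 and a summed signal of 74326 on the memory array, 38621 on the naive array and 3763 to 4450 on the effector arrays. Ms4a1, the CD20 gene, gave 11124 against 2406, while Ighm, the immunoglobulin mu chain, gave 28142 against 27391. Of 10 MHC class II genes 9 were higher, with a median of 2.20 and Cd74, the invariant chain, at 9965 against 826. Of 12 stromal and endothelial genes 10 were higher, led by Stab2 of sinus endothelium at 5396 and at least 124-fold higher. Of 11 platelet and megakaryocyte genes 8 were higher, with Ppbp at 3215 and under the floor on the naive array, at least 74.1-fold higher, and of 14 erythroid genes 10 were higher and 2 lower, with Slc4a1 at 1776 against 47.6.

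Dendritic cell genes had 7 of 11 higher, plasma cell genes 3 of 11, and CD8 and natural killer genes 6 of 11 with 2 lower. In the last list Tyrobp and Fcgr3, which macrophages express, led at 15441 against 346 and 7552 against 136, Klrd1 gave 3300 against 654, and Ncr1, a natural killer cell receptor, gave 102 against 83.8. Neutrophil genes had 5 of 18 higher and 2 lower, with S100a8 at 6857 against 2917. Mast cell and basophil genes had 3 of 7 lower and 0 higher, with Cpa3, a mast cell protease, at 101 against 331. This list was near the floor, summing to 481 on the memory array, with 3 members above the floor, and to 963 on the naive array. Its median of -0.47 turned to 0.07 when centred on the T cell receptor list.

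**Figure D5:**
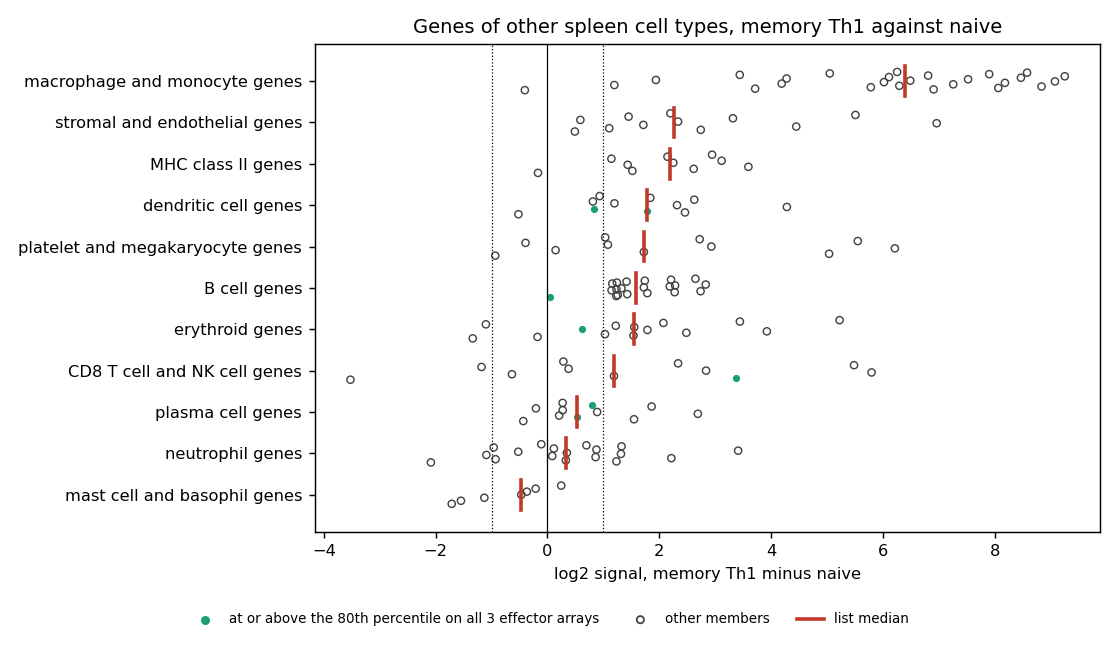
Difference in log2 signal, memory Th1 minus naive, of each member of 11 lists of other spleen cell genes, with list medians as red bars and dotted lines at 2-fold. Filled green points are at or above the 80th percentile on all 3 effector arrays. The macrophage and monocyte median lies at 6.39 and the B cell median at 1.57, while the mast cell and basophil median lies at -0.47.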

How the data were processed

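RNA of spleen CD4 T cells was measured on 5 Affymetrix mouse expression arrays, 1 per group. The deposited values are intensity, a linear signal per probe set, made by the authors with GCOS and Affymetrix Expression Console, per the submitters' processing notes. Versions were not given in the sources used here. After trimming 2%, the mean was 500 on every array, and array medians were 99.1 for memory and 74.0 for naive cells. The medians of the 5 arrays spanned 0.658 on the log2 scale, so all 5 were quantile normalized. The ratio of 3' to 5' signal was 0.918 in memory and 0.895 in naive cells for the Gapdh control probe sets, and 1.41 and 1.45 for beta-actin. Spearman's rho across probe sets between the memory and naive arrays was 0.884.

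After 64 of 45101 probe sets were set aside as controls, 34945 had 1 gene symbol in the platform annotation of 2016, 932 had several and 9160 had none. Each gene was represented by its brightest probe set (mean log2 over the 5 arrays). Values under the 40th percentile (43.4) were raised to it, and genes at this floor on both arrays were not compared. A gene was T cell expressed if above the floor on at least 1 effector array. The members and the 42 gene lists (31 of T cell genes, 11 of other cells, 880 of 978 entries measured) were chosen with earlier results of these data known. Some list genes are not analysed here. Genes to name were picked by a rule. It took 24 fixed genes where measured and up to 6 members of each list, with further members as values. It also took the 12 furthest higher and lower T cell expressed genes and the 8 and 8 at the floor on the effector arrays. For these the brighter array reached the 60th percentile (150) and all probe sets above the floor went 1 way. The 12 and 12 furthest strongly T cell expressed genes were added after seeing the data. Not every gene picked in these ways is named in the text. No test was made, since each group had 1 array, and nothing says whether the RNA came from 1 or several mice.

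Promoters came from the RefSeq table for GRCm38.p6. The calculation was tested on simulated arrays made from the naive array, with known differences set in both directions for equal numbers of genes. They held no surplus of far higher genes like that of the memory array, so that setting was not tested. Alternatives were the signals as deposited, normalization of 2 arrays alone, floors at the 20th and 60th percentiles, a constant added in place of the floor, no floor, the mean of a gene's probe sets, leaving out _x_at and _s_at probe sets, other class limits and centring on the T cell receptor list. Python 3.11.15, numpy 2.4.6, pandas 2.3.3, scipy 1.17.1 and matplotlib 3.10.9 were used.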

Additional observations from a re-analysis of the deposited data

How the results depend on the processing

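Among 42 lists and 171 genes recomputed under the alternatives, 10 list medians and 152 genes were past 2-fold. Their direction held except for Tagln2, which was at 0.21 on the log2 scale without _x_at and _s_at probe sets. In at least 1 alternative 33 of the genes were under 2-fold, 16 of them with the mean of their probe sets, and 2 of the list medians. The floor's level sets which genes are compared. Over all genes, 1645 were higher and 542 lower. The counts were 2552 higher and 1587 lower with the floor at the 20th percentile, 1052 and 270 at the 60th, and 3356 and 2421 with no floor. With the signals as deposited 344 were lower, and centred on the T cell receptor list 2952 were higher and 143 lower. Among T cell expressed genes, 1287 higher and 510 lower became 2398 and 1478 with the floor at the 20th percentile and 649 and 239 at the 60th. No floor gave 1124 lower, the signals as deposited 315 lower, and the centring 2444 higher and 133 lower. Requiring the 60th percentile on 1 effector array left 799 higher, and the 80th on all 3 left 263 higher and 113 lower, both by construction. Among genes at the floor on the effector arrays, 358 higher and 32 lower became 154 and 109 with the floor at the 20th percentile and 1487 and 1297 with none. The signals as deposited gave 553 higher, the added constant 70 lower and the centring 10 lower. Class limits of all 3 effector arrays above the floor gave 672 and 109, and of the 60th percentile on 1 array 846 and 200. Higher genes made up 75.2% of genes past 2-fold, 85.8% as deposited, 95.4% after centring, and 58.1% with no floor. Centring moved the median of all genes to 0.49, against -0.05 uncentred. The 80th percentile class and the centring were chosen after seeing the data. For the signals as deposited and the centring, the cause was not tested.

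Of 378 list medians under alternatives, 17 moved by more than the probe set SD of 0.54. Among the values of the 171 genes 179 did so, 1349 did not and 1 reversed. Centring subtracted the T cell receptor list median, -0.53, from every value. That shift was smaller in size than the SD, so no centred value could count as moved, and these counts do not test the centring. The medians of 11 of 42 lists changed sign or reached 0 after centring, and those of 3 as deposited (follicular helper, Th2 and mitosis). The CD8 and natural killer median fell under 2-fold in 4 of 9 alternatives. At the 60th percentile floor the erythroid median and 10 genes did so, among them Foxp3, Tk1 and Tmie, and after centring 14 genes, among them Ccr7, Cd27, Cd5, Foxo1 and Gata3. As a mean of their probe sets Itgb1, Scd1, Il10rb and Tsc22d3 were under 2-fold. Acaca, at 0.28, was -0.31 at its lowest. No paired analysis was possible because each group had 1 array. The number of arrays, 1 per group, limits all values, and values under the floor have only a bound.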

Other observations

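Genes at the floor on all 3 effector arrays that were lower in memory cells were few, 32 of 1137. Ampd1, the AMP deaminase of the purine cycle, gave 69.4 on the memory array and 928 on the naive array, 13.4-fold lower, and Xkrx, a membrane protein gene, gave 77.8 against 586. Slc16a5, a monocarboxylate transporter, gave 170 against 918. Tmie was under the floor on the memory array against 268 on the naive array, at least 6.18-fold lower. Mpo, the myeloperoxidase of immature granulocytes, was 4.24-fold lower, and Gabrr2, Nrxn3 and Cnga1 were between 2.68-fold and 4.82-fold lower.

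Of 16 BCL2 family genes 4 were higher and 0 lower, beside 12.6% and 4.14% of all genes. The higher ones included Pmaip1, the cell death gene NOXA, at 877 on the memory array against 68.6 on the naive array. Hopx, a cofactor of long-lived Th1 cells, gave 824 against 112. Gata3, the Th2 factor, gave 698 against 1493, and the only Th2 list members higher were Ccr3, Pparg and Epas1. Fas, the death receptor, gave 461 against 1596, and Cxcr4 gave 544 against 1451. Of 27 interleukin receptor genes 8 were higher and 3 lower, with Il10rb at 4377 against 1907 and Il4ra at 727 against 1492. Il4ra was under 2-fold in 5 of 9 alternatives.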
